A study of Oryza sativa Japonica Group with 12 samples.

Results

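The genes described here are 10 rice genes of pattern-triggered immunity: the chitin receptor genes CEBiP (Os03g0133400) and CERK1 (Os08g0538300), the LysM protein genes LYP4 (Os09g0452200) and LYP6 (Os06g0208800), the flagellin receptor gene FLS2 (Os04g0618700), the co-receptor gene SERK2 (Os04g0457800), the receptor-like cytoplasmic kinase genes RLCK176 (Os05g0110900) and RLCK185 (Os05g0372100), and the MAP kinase genes MPK3 (Os03g0285800) and MPK6 (Os06g0154500). They were chosen by identifier for what they encode and not by their values, although earlier results of these data were known. All 10 were among the 35833 rows of the deposited table, and all 10 passed the minimum mean of 10 normalised counts, as did 19189 genes in all. The table gives identifiers only, so the names rest on published locus assignments, which no file here allows to be verified.

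Plants detect microbes through receptors at the cell surface that bind conserved microbial molecules such as chitin, peptidoglycan and flagellin. In rice, CEBiP binds chitin and acts with the receptor kinase CERK1, which passes the signal to receptor-like cytoplasmic kinases, and these in turn switch on a cascade of MAP kinases that ends in MPK3 and MPK6. Most of this signalling runs through phosphorylation of proteins that are already present, so transcript levels show the supply of the components and not their activity.

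The samples were roots of the rice cultivar Nipponbare, and their polyadenylated RNA was sequenced close to its 3′ ends, so that transcripts are counted without regard to length. Seedlings were transplanted 5 days after germination. They were sprayed on the leaves 13 days after transplanting, with 300 µM piperonylic acid and 0.1% Tween 20 or with a corresponding mock solution. Each sample pooled 4 plants. Piperonylic acid inhibits cinnamate 4-hydroxylase, an enzyme early in the phenylpropanoid pathway. There were 4 groups of 3 samples: mock and treated roots 6 h after the spray, at 13 days after transplanting, and mock and treated roots 24 h after it, at 14 days. The series title speaks of roots inoculated with the root-knot nematode Meloidogyne graminicola and the source names of a second treatment, but the protocols used here describe neither an inoculation nor an earlier spray. The labels do not say whether pools were grown or sprayed separately, and p-values therefore reflect only how much these pools varied, which may be technical.

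Reads per library ran from 6302056 to 10254382 in 11 libraries and reached 20301774 in mock replicate 1 at 24 h. Values are normalised counts, that is reads divided by a size factor per library computed over all 12 libraries, which puts the 4 groups on 1 scale. On the third principal component mock replicate 2 at 24 h scored 50.1 while the other 11 libraries scored between -21.0 and 12.6. The 5 identifiers recalled as root markers were above 0 in every library, with sums from 44648 to 71879 normalised counts. The lowest of them, Os02g0662100, went down to 1.04 normalised counts. The 6 identifiers recalled as leaf markers were also above 0 in every library, with sums from 389 to 1849 normalised counts.

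**Figure D1:**
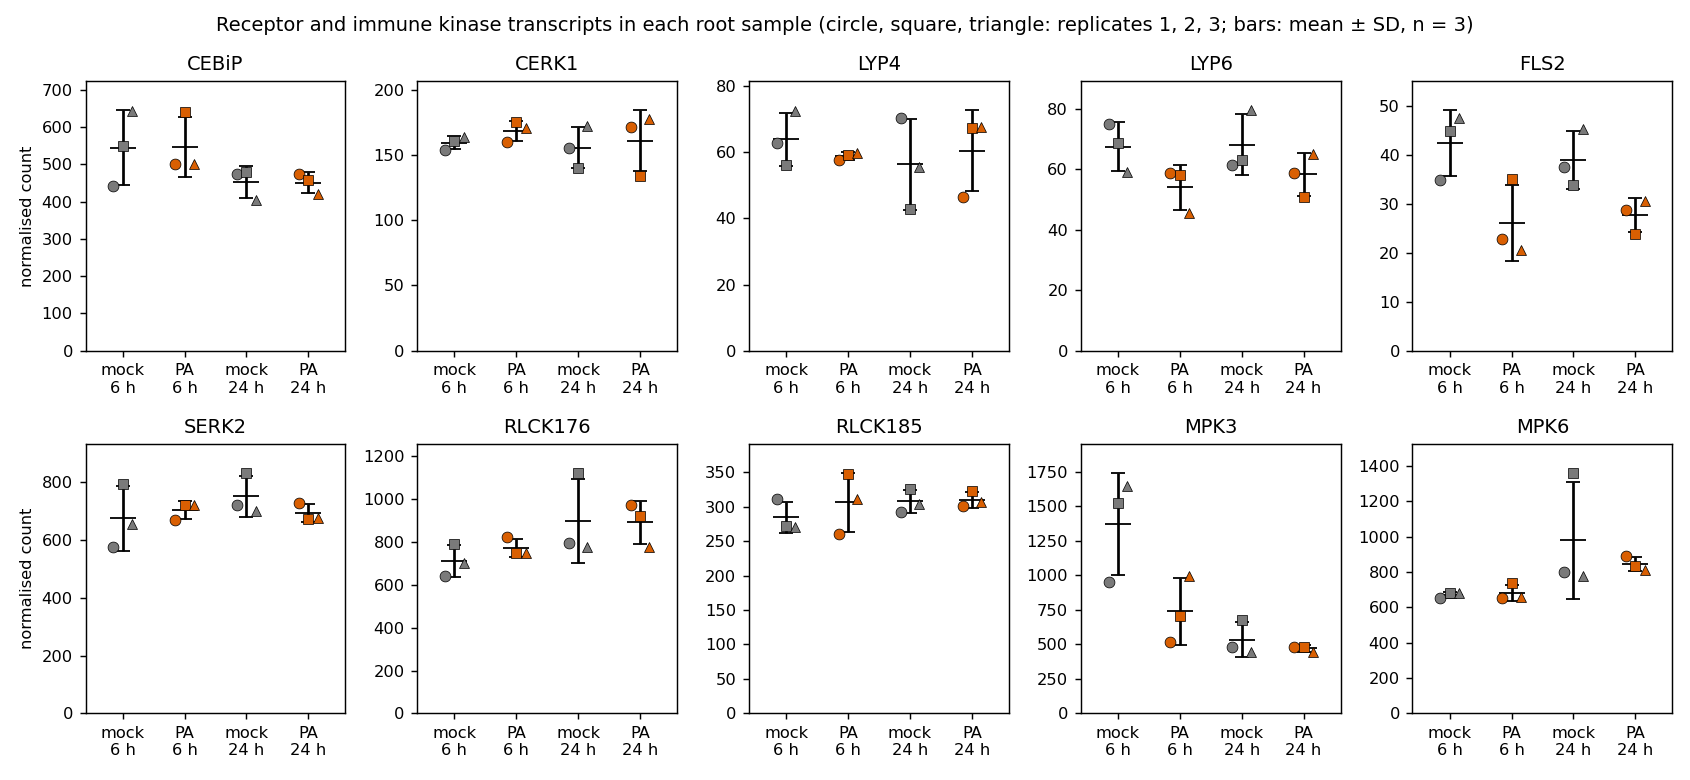
Normalised counts of the 10 genes (vertical axis, linear from 0, its own range in each panel) in mock and piperonylic acid (PA) roots at 6 h and 24 h (horizontal axis). Circles, squares and triangles are replicates 1, 2 and 3, and bars are the mean ± SD of 3 samples. MPK3 has its highest mean, 1374, in mock roots at 6 h, and MPK6 has a single high value of 1362 in mock replicate 2 at 24 h.

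The first comparison asked whether these genes differed between treated and mock roots 6 h after the spray. None of the 10 passed: limma called 0 of 10 at an adjusted p of at most 0.05, against 315 of all genes tested, or 1.64%. At an unadjusted p under 0.05 there were 2 of the 10, MPK3 and FLS2, and both had their lower mean in treated roots. EdgeR called 0 of the 10, against 308 of all genes tested, and DESeq2 called 1, which was MPK3, against 672. The log2 fold changes were positive in 6 and negative in 4, with a median of 0.02, against a median of 0.01 over all genes tested. The groups did not overlap in 1 of the 10, LYP6, against 19.5% of all genes tested. The number of genes called was 4 without mock replicate 3, 15 and 18 without treated replicates 1 and 2, and 201 without mock replicate 2, while leaving out treated replicate 3 gave 744. Of the 24 h libraries, mock replicate 1 and treated replicate 2 gave 169 and 141 when left out.

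MPK3, a MAP kinase whose transcript is known to respond to wounding and infection in rice, had the largest difference of the 10. In mock roots its normalised counts were 953, 1523 and 1644 in replicates 1, 2 and 3, a mean of 1374 ± 369 (SD, n = 3). In treated roots they were 519, 702 and 997, a mean of 739 ± 241 (SD, n = 3). The treated samples lay lower, but treated replicate 3 stood above mock replicate 1, so the groups overlapped. The log2 fold change was -0.90 ± 0.27 (SE), with a 95% interval from -1.52 to -0.29 and a limma adjusted p of 0.139. Over the alternatives this p ran from 0.00118 to 0.393, and the log2 fold change from -1.15 to -0.64.

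The replicate numbers of the titles matter for this gene. Within each number the treated sample was lower than the mock sample, by log2 differences of -0.87, -1.11 and -0.72. At 6 h same-numbered samples also deviated together over all genes tested, as the account of the processing gives. At 24 h differently numbered samples correlated at up to 0.209, so this does not settle whether the numbers mark pairs. With the title numbers as a replicate block the same log2 fold change of -0.90 had a limma adjusted p of 0.00118, and the number of genes called was 809. The source names give another number to some treated samples, and with those as the block the log2 fold change was -0.64 at a limma adjusted p of 0.130. No treated sample has the source-name number 3, so mock replicate 3, the highest mock value, adds nothing to that estimate. The call was also made without treated replicate 3, at -1.14 and a limma adjusted p of 0.0364, and by DESeq2 at -0.89 and an adjusted p of 0.00743.

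Among the receptors, FLS2, the receptor kinase for bacterial flagellin, had the widest difference at 6 h. Its normalised counts were 34.8, 45.0 and 47.6 in mock roots and 22.8, 35.0 and 20.6 in treated roots. Treated replicate 2 lay just above mock replicate 1, and the other treated samples lay below all mock samples. Within the title numbers the treated sample was lower in all 3 pairs, by log2 differences of -0.57, -0.34 and -1.13, and with those numbers as a block the limma adjusted p was 0.139. The log2 fold change was -0.68 ± 0.23 (SE), with a 95% interval from -1.17 to -0.19 and a limma adjusted p of 0.151. It ranged from -0.90 to -0.54 over 22 alternatives and passed in none of them, with adjusted p from 0.125 to 0.462. These values rest on 20 to 46 reads per library at 6 h, where counting error alone gives a coefficient of variation of 16.6% in mock and 20.7% in treated roots.

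LYP6, a LysM protein that binds peptidoglycan and chitin, had normalised counts of 75.0, 68.5 and 59.0 in mock and 58.6, 58.0 and 45.4 in treated roots. The groups did not overlap, but mock replicate 3 and treated replicate 1 were separated by less than 1 normalised count. Within the title numbers the log2 differences were -0.34, -0.23 and -0.36, and the block gave a limma adjusted p of 0.390. Limma put the log2 fold change at -0.31 ± 0.17 (SE) and its adjusted p at 0.442. LYP4, which binds the same ligands, had 62.9, 56.2 and 72.4 in mock and 57.5, 59.1 and 59.8 in treated roots. These groups overlapped, and the log2 fold change of -0.11 ± 0.20 (SE) had a limma adjusted p of 0.855.

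The chitin receptor pair showed no difference that passed at 6 h. CEBiP, which binds chitin but has no kinase domain, had 442, 549.7 and 643 normalised counts in mock and 502, 640.0 and 500.4 in treated roots. Its log2 fold change was 0.01 ± 0.13 (SE), with a 95% interval from -0.27 to 0.30 and a limma adjusted p of 0.979. CERK1, the LysM receptor kinase that signals for it, had 154, 160.4 and 163 in mock and 159.6, 175 and 170.2 in treated roots. For CERK1 the log2 fold change was 0.08 ± 0.13 (SE), with a 95% interval from -0.19 to 0.34 and a limma adjusted p of 0.830.

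Of the genes that act with and after the receptors, SERK2, a co-receptor kinase of the BAK1 family, had 574, 795 and 655 normalised counts in mock and 668, 722 and 722 in treated roots. RLCK176, a cytoplasmic kinase downstream of CERK1, had 641, 789 and 699 in mock and 822, 746 and 747 in treated roots. RLCK185, which CERK1 phosphorylates on chitin perception, had 311, 272 and 271 in mock and 261, 347 and 311 in treated roots. In all 3 genes the groups overlapped.

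MPK6, the MAP kinase that acts beside MPK3, had 652, 682 and 681 normalised counts in mock and 653, 735 and 656 in treated roots, which also overlapped. Log2 fold changes of SERK2, RLCK176, RLCK185 and MPK6 were 0.07, 0.12, 0.10 and 0.02, and the lowest limma adjusted p of the 4 was 0.725. The intervals of these genes reached at most 0.41 upward, in RLCK176, and -0.34 downward, in MPK6.

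Leaf marker sums at 6 h were 727, 1849 and 1260 normalised counts in mock and 676, 482 and 468 in treated roots. These sums did not overlap, while 0 of the 6 identifiers passed by limma. Taken singly, 5 had negative log2 fold changes and 1 positive. The groups did not overlap in 2 of the 6, against 19.5% of all genes tested. Os12g0274700 had 20.1, 574 and 36.2 in mock and 98.8, 84.2 and 79.4 in treated roots. The 5 root marker identifiers summed to between 53231 and 71879 in mock and between 62635 and 67530 in treated roots. Singly, their log2 fold changes were positive in 3 and negative in 2, and 0 of the 5 passed by limma. They ran from -2.03 in Os02g0662100 to 0.39 in Os02g0745100. The part of leaf tissue in the MPK3 and FLS2 values was not tested. In whole roots, fewer cells of a type and less RNA per cell cannot be told apart.

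**Figure D2:**
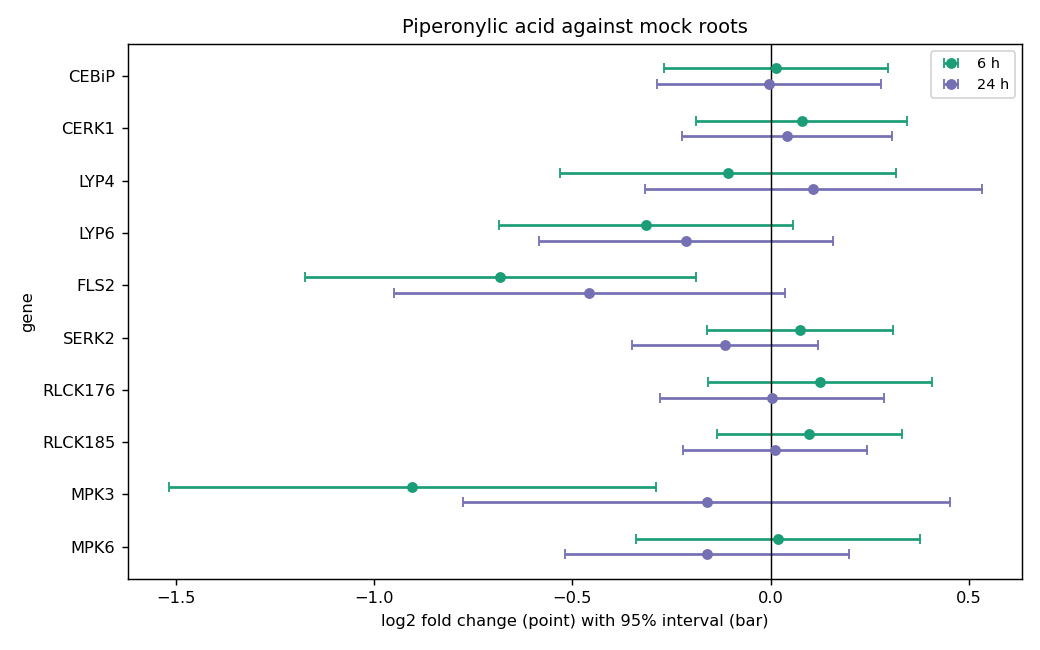
Log2 fold change of piperonylic acid against mock roots (horizontal axis) for each gene (vertical axis), at 6 h in green and 24 h in purple. Points are limma estimates and bars their 95% intervals. At 6 h the intervals of MPK3 (-1.52 to -0.29) and FLS2 (-1.17 to -0.19) lie below 0, but no gene has an adjusted p of at most 0.05 at either time.

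At 24 h the same comparison gave 0 of 10 called by limma, against 19 of all genes tested, or 0.0990%, and 0 of 10 at an unadjusted p under 0.05. EdgeR and DESeq2 also called 0 of the 10. The log2 fold changes were positive in 4 and negative in 6, with a median of -0.06, against -0.00330 over all genes tested. The groups did not overlap in 1 of the 10, which was FLS2, against 11.8% of all genes tested. The count of 19 was 3 without mock replicate 2 or 3, 5 without treated replicate 1 or 2, 7 without treated replicate 3, and 29 without treated replicate 3 of the 6 h group.

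FLS2 had normalised counts of 37.6, 33.8 and 45.3 in mock and 28.8, 23.9 and 30.6 in treated roots at 24 h. All 3 treated samples lay below all 3 mock samples. For FLS2 the estimate at 24 h was -0.46 ± 0.23 (SE) on the log2 scale, with a 95% interval from -0.95 to 0.04 and a limma adjusted p of 0.843, so the difference did not pass at either time. Counting error alone gives a coefficient of variation of 14.6% in mock and 19.8% in treated roots here, beside observed values of 15.1% and 12.6%.

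MPK3 had 479.6, 676 and 446 normalised counts in mock and 483, 484 and 443 in treated roots at 24 h. The treated samples lay close together and within the spread of the mock samples but for replicate 3, which was the lowest of all 6. The log2 fold change was -0.16 ± 0.27 (SE), with a limma adjusted p of 0.958, and it was 0.02 without mock replicate 2.

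MPK6 had 798, 1362 and 776 in mock and 892, 834 and 812 in treated roots. Mock replicate 2, the library that stood apart, was the highest of the 6, and the other mock samples were the lowest. For MPK6 the estimate of -0.16 ± 0.17 (SE) on the log2 scale had a limma adjusted p of 0.928, and it turned to 0.10 without that library. RLCK176 had its highest value in the same library, with 796, 1123 and 776 normalised counts in mock against 972, 921 and 778 in treated roots, and a log2 fold change of 0.00259 ± 0.13 (SE). SERK2 was likewise highest there, with 722, 833 and 699 in mock against 728, 671 and 676 in treated roots.

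The remaining genes overlapped between the groups at 24 h. CEBiP had 474, 479 and 405 normalised counts in mock and 475, 459 and 419 in treated roots, and CERK1 had 155, 139.8 and 172 against 172, 134 and 177. LYP4 had 70.4, 42.8 and 55.6 in mock and 46.3, 67.4 and 67.7 in treated roots, the widest scatter among the receptors. LYP6 had 61.2, 63.1 and 79.5 against 58.9, 50.8 and 64.9, with -0.21 ± 0.17 (SE) on the log2 scale at a limma adjusted p of 0.915. RLCK185 had 293, 326 and 304 against 301, 323 and 306, and its interval ran from -0.22 to 0.24. Leaf marker sums at 24 h were 389, 515 and 1242 in mock and 488, 413 and 1266 in treated roots, which overlapped.

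Whether the treatment effect differed between the times was tested directly. Of the 10 genes, limma called 0, against 104 of all genes tested, or 0.542%, and 0 had an unadjusted p under 0.05, while edgeR and DESeq2 called 0 as well. MPK3 had the largest difference, with an effect higher at 24 h than at 6 h by 0.74 ± 0.39 (SE) on the log2 scale, a 95% interval from -0.13 to 1.61 and a limma adjusted p of 0.547. With the title numbers as a replicate block within each time this adjusted p was 0.0363, and with the source-name numbers it was 0.738 at a log2 difference of 0.33. At 24 h samples with the same title number did not deviate together over all genes tested. For FLS2 the difference was 0.22 ± 0.33 (SE), with a limma adjusted p of 0.872, so its effects at 6 h and 24 h were not shown to differ. The count of 104 was 483 without treated replicate 3 of 6 h. Leaving out mock replicate 2 or 3 of 6 h gave 58 and 43, and treated replicate 1 or 2 of that time gave 53 and 41. Among the 24 h libraries, leaving out mock replicate 1 or 3 gave 55 and 61, and each treated replicate in turn gave 64, 36 and 52.

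The last pair of comparisons set 24 h against 6 h in roots of the same treatment. Time after the spray, plant age and any difference in time of day cannot be told apart here. Of the 5 root marker identifiers, 1 was lower at 24 h by limma in mock roots, against 17.3% of all genes tested called either way. In treated roots 3 were lower, against 14.0%. The change was positive in 1 of the 5, Os02g0662000, at 0.08 in mock and 0.41 in treated roots, with limma adjusted p of 0.804 and 0.140. The part of these markers in the results was not tested. In mock roots 1 of the 10 genes changed by limma, against 3312 of all genes tested, or 17.3%: MPK3 fell by 1.34 ± 0.27 (SE) on the log2 scale, with a 95% interval from -1.96 to -0.73 and a limma adjusted p of 0.00767. Its 3 mock samples at 24 h, at 446 to 676 normalised counts, lay below its 3 at 6 h, at 953 to 1644. The call held in all 22 alternatives, with log2 fold changes from -1.59 to -1.05. The groups did not overlap in 2 of the 10, MPK3 and MPK6, against 33.1% of all genes tested.

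In treated roots 0 of the 10 passed by limma, against 2678 of all genes tested, or 14.0%, and 0 had an unadjusted p under 0.05, while edgeR called 0 and DESeq2 called 1. The share of 14.0% is that of limma alone. MPK3 went from 739 to 470.1 normalised counts in the means, or -0.60 ± 0.27 (SE) on the log2 scale at a limma adjusted p of 0.199, and DESeq2 gave an adjusted p of 0.0398 at -0.65. With the title numbers as a block the limma adjusted p was 0.00325 at the same value. The source-name numbers gave a limma adjusted p of 0.00329 at -1.01. A block within each time takes differences between numbers out of the spread. These p-values can therefore be too small for a comparison between times. No treated sample has the source-name number 3, so the value of -1.01 also rests on mock samples. The groups did not overlap in 3 of the 10, CEBiP, MPK3 and MPK6, against 31.8% of all genes tested. Whether the fall of MPK3 in mock roots differs from its change in treated roots is the same test as the difference in treatment effect above, which did not pass.

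MPK6 had its 24 h values above its 6 h values in both treatments. In mock roots the log2 fold change was 0.49 ± 0.17 (SE), with a limma adjusted p of 0.0594, and in treated roots it was 0.31 ± 0.17 (SE), where limma gave an adjusted p of 0.259. The first was 0.23 without mock replicate 2 of 24 h, 0.61 without mock replicate 1 and 0.63 without mock replicate 3 of that time, and the last 2 passed, at limma adjusted p of 0.0320 and 0.0186. Without mock replicate 2 the second passed, at 0.31 and a limma adjusted p of 0.0168, through the shared estimate of spread. In mock roots MPK6 also passed with the title numbers as a block, at a limma adjusted p of 0.0475, and by DESeq2, at 0.54 and an adjusted p of 0.0189. The limit of the block given above holds for the limma value.

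CEBiP went the other way, with -0.25 ± 0.13 (SE) in mock and -0.27 ± 0.13 (SE) in treated roots, at limma adjusted p of 0.226 and 0.212. RLCK176 had 0.32 ± 0.13 (SE) and 0.20 ± 0.13 (SE), at limma adjusted p of 0.115 and 0.374. The other 6 genes lay between -0.20 and 0.16 in mock and between -0.07 and 0.11 in treated roots. All of these depend on the scale between the times. On the values as deposited, where the authors had scaled each time by itself, mock roots had a median log2 difference of 0.30 between the times over all genes tested. There the change of CEBiP turned to 0.04 in mock and 0.02 in treated roots, the number of the 10 genes called was 5 in mock roots, against 41.4% of all genes tested, and 3 in treated roots, against 37.4%, and MPK3 was at -1.05 in mock roots.

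**Figure D3:**
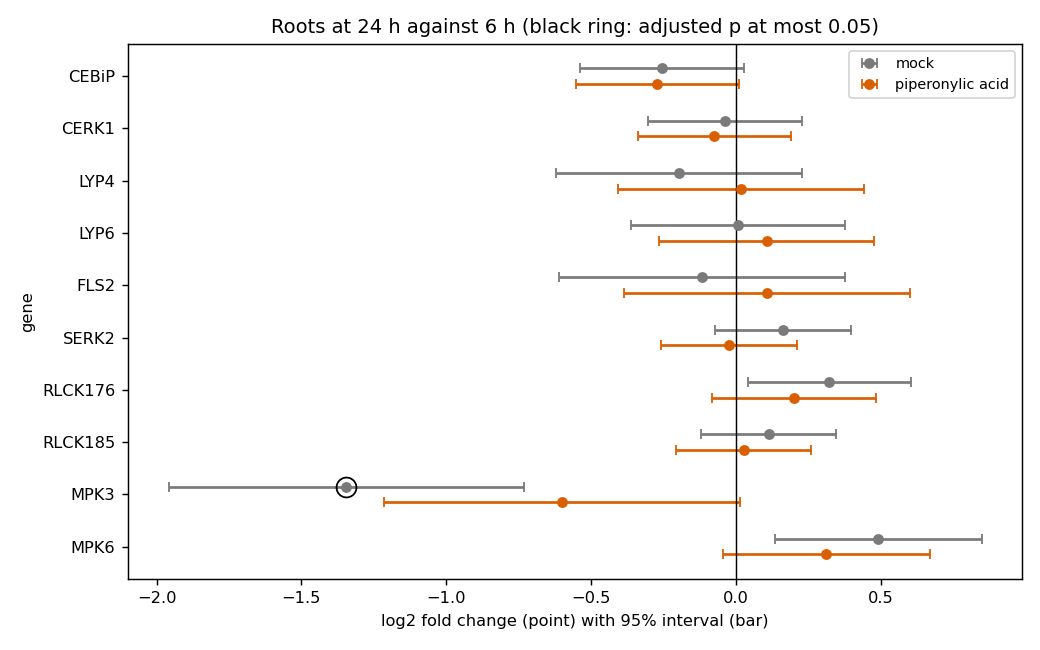
Log2 fold change of 24 h against 6 h (horizontal axis) for each gene (vertical axis), in mock roots in grey and piperonylic acid roots in orange. Points are limma estimates, bars their 95% intervals, and a black ring marks an adjusted p of at most 0.05. MPK3 in mock roots, at -1.34, is the only ringed point.

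The order of the 4 group means showed how little most of these genes moved. The highest mean was 2.92 times the lowest in MPK3, 1.62 times in FLS2 and 1.46 times in MPK6, and between 1.08 and 1.27 times in the other 7. For MPK3 the order was mock at 6 h, treated at 6 h, mock at 24 h and treated at 24 h. Neither the first nor the last neighbouring step passed, the middle step was not compared, and the step from mock roots at 6 h to mock roots at 24 h passed. For FLS2 both mock means, at 42.4 and 38.9 normalised counts, lay above both treated means, at 27.8 and 26.1. In MPK6 and RLCK176 both 24 h means lay above both 6 h means, and in CEBiP both lay below. In LYP6 both mock means lay above both treated means, in CERK1 both treated means lay above both mock means, and in RLCK185 both 24 h means lay above both 6 h means. In LYP4 and SERK2 the order followed neither treatment nor time.

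Replicates of a group agreed to different degrees. In LYP4, LYP6, FLS2 and CERK1, which had at most 355 reads in a library, the coefficient of variation within a group was 2.0% to 29.6%, beside 7.3% to 20.7% from counting alone. MPK3 had 26.9% and 32.6% in mock and treated roots at 6 h, where counting alone gives 3.0% and 4.0%, and 23.3% and 4.9% at 24 h. MPK6 had 2.5% and 6.9% at 6 h and 34.0% and 4.9% at 24 h. So the spread of MPK3 at 6 h and of MPK6 in mock roots at 24 h was several times that of counting. This was not particular to them. RLCK176 had 21.7% beside 3.0% in mock roots at 24 h. In mock roots at 6 h CEBiP had 18.5% beside 4.7% and SERK2 16.6% beside 4.2%. Other groups lay near or below counting, such as RLCK185 in treated roots at 24 h, with 3.7% beside 5.9%.

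Deviations of the samples from their group means, on the log2 scale, were correlated between genes as a description over 12 samples that share libraries and size factors. Of the 45 pairs among the 10 genes 22 were positive, with a median Pearson's r of -0.000743. Without mock replicate 2 at 24 h, 30 were positive and the median was 0.14, so the balance of signs changed when that library was left out. The other libraries were not left out in turn, so whether this is particular to that library was not tested. RLCK176 and MPK6 were the most alike, at r = 0.81, but this was 0.36 without that library. CEBiP and MPK6 then became the most alike, at 0.78 against 0.39 over all 12, and FLS2 and MPK6 went from -0.13 to 0.66. SERK2 was most like RLCK176, at 0.70 and 0.61 without that library. MPK3 and LYP6 deviated in opposite directions, at -0.72 in both cases. Against all listed immune signalling identifiers, MPK3 was most like Os02g0787300, at 0.81, CEBiP most like Os05g0115800, at 0.85, and FLS2, CERK1 and LYP6 most like Os09g0544800, at 0.81, 0.70 and 0.59. LYP4 was most like Os05g0112000, at 0.70, and RLCK185 most like Os10g0533600, at 0.68. Each of these is the highest of many r values for its gene, so part of its size comes from that choice. Genes outside the lists were not compared.

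**Figure D4:**
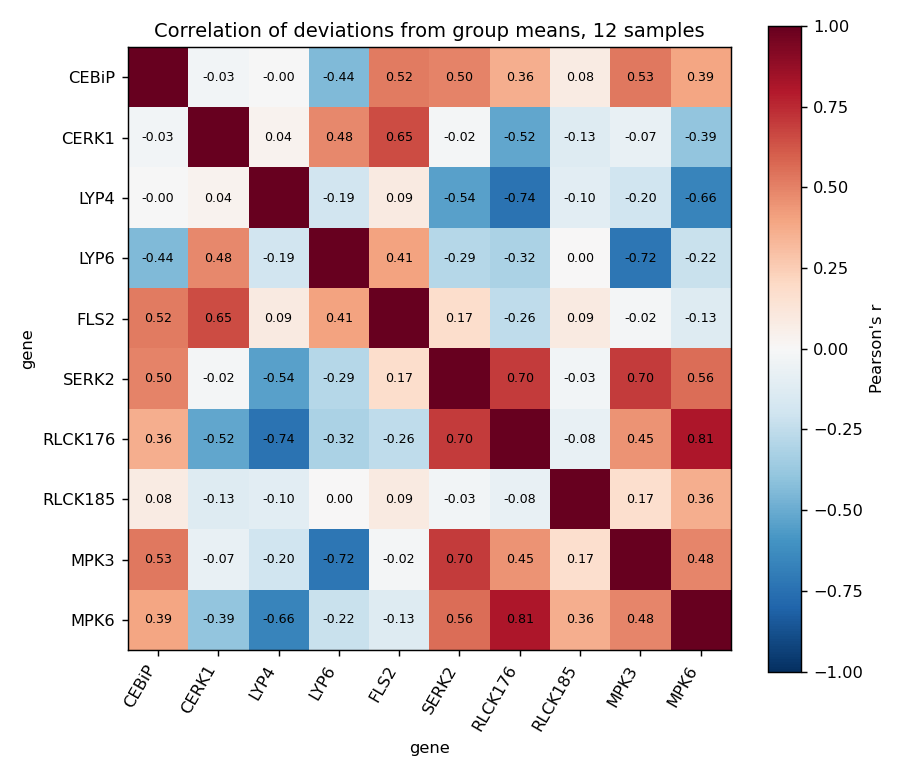
Pearson's r between the 10 genes (both axes) of deviations from the 4 group means of log2 values, over 12 samples. Red cells are positive and blue cells negative, and the number in each cell is r. The strongest positive cell is RLCK176 with MPK6 at 0.81, which is 0.36 without mock replicate 2 at 24 h, and the strongest negative cell is LYP4 with RLCK176, at -0.74.

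A further list of 16 identifiers was meant to hold other components of rice immune signalling: SERK1, the RAC1 GTPase with its exchange factor RacGEF1, the co-chaperones RAR1, SGT1 and Sti1a, the kinases MKK4, MKK5, MAPKKKe, MKKK10 and MPK4, the phosphatase MKP1, the ubiquitin ligases SPL11 and XB3, and the receptor-like kinases FLR1 and FLR2. The identifiers were recalled and no file pairs them with names, so they are given as identifiers. All 16 were tested. At 6 h the treatment changed 1 of them by limma, downward, beside the 1.64% of all genes tested, and at 24 h and in the difference between the times it changed 0 of 16, with 0 and 2 at an unadjusted p under 0.05. EdgeR and DESeq2 called the same identifier at 6 h, and both called 0 at 24 h and for the difference. The median log2 fold change was -0.06 at 6 h and 0.05 at 24 h.

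The identifier that fell at 6 h was Os01g0769700. Its normalised counts were 629, 728 and 802 in mock and 466, 442 and 547 in treated roots, and the groups did not overlap. It fell by 0.57 ± 0.12 (SE) on the log2 scale, and limma gave an adjusted p of 0.0306. The call was lost in 7 of 23 alternatives, at limma adjusted p up to 0.171: the source-name block, the 6 h samples alone, and the fits that left out mock replicate 2 or 3, treated replicate 1 or 2, or the second treated replicate at 24 h. At 24 h the values were 516, 451 and 476 in mock and 427, 477 and 555 in treated roots, which overlapped.

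Between the times, 7 of the 16 changed in mock roots, 4 higher and 3 lower, beside 17.3% of all genes tested, and 5 changed in treated roots, 3 higher and 2 lower, beside 14.0%. The deepest fall was in Os05g0112000, from 984, 1067 and 1101 normalised counts in mock roots at 6 h to 323, 292 and 299 at 24 h. Its log2 fold change was -1.78 ± 0.09 (SE) in mock roots, with a limma adjusted p of 1.23e-09, and -1.61 ± 0.09 (SE) in treated roots, with 2.90e-09. Os02g0787300 fell too, from 423, 493 and 617 in mock roots at 6 h to 175, 189 and 147 at 24 h. Its log2 fold change was -1.56 ± 0.17 (SE) in mock and -1.27 ± 0.17 (SE) in treated roots.

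Higher values at 24 h were found in Os02g0644100, with log2 fold changes of 0.80 in mock and 0.81 in treated roots, and in Os01g0624500, with 0.52 and 0.58. Together with the pair that fell, these identifiers passed in both treatments and in all 22 alternatives. Os02g0535400 passed at 0.36 in mock and 0.38 in treated roots. Its call was lost without mock replicate 1 of 6 h and without mock replicate 3 of 24 h in the first, and without treated replicate 2 of 6 h, without treated replicate 1 of 24 h and with the source-name block in the second. In mock roots Os05g0115800 passed at 0.41 and Os01g0769700 at -0.57. The first was lost without mock replicates 1 and 2 of 6 h, without mock replicates 1 and 2 of 24 h, with no filter and by DESeq2. The other was lost on the values as deposited, at -0.28.

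**Figure D5:**
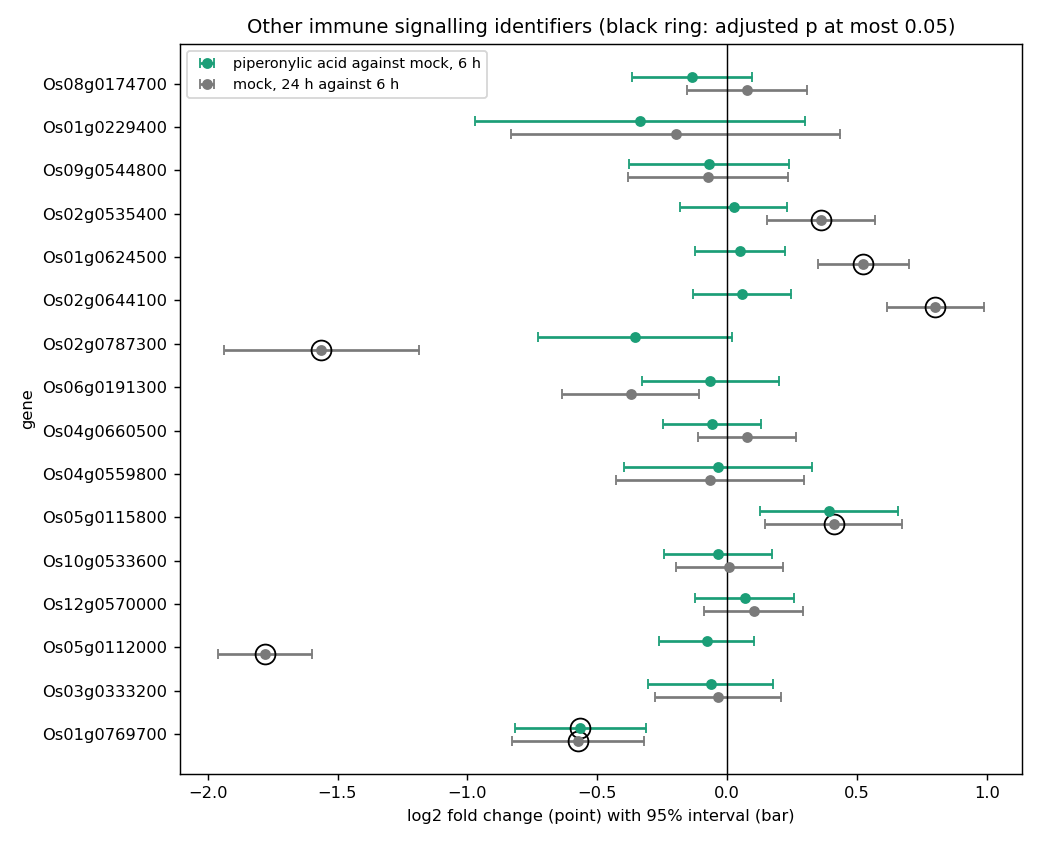
Log2 fold change (horizontal axis) of the 16 further immune signalling identifiers (vertical axis), for piperonylic acid against mock roots at 6 h in green and for mock roots at 24 h against 6 h in grey. Points are limma estimates, bars their 95% intervals, and a black ring marks an adjusted p of at most 0.05. Os01g0769700 is the only green point with a ring, at -0.57, while 7 grey points have one.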

How the data were processed

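Libraries of 12 root samples were sequenced from the 3′ end. Per the submitters' processing notes, FastQC 0.11.8, Trimmomatic 0.38, STAR 2.6.1d and DESeq2 were used. For the counting tool and the genome build, nothing is stated in the sources read here. The deposited values are a signal that the authors made by dividing read counts by a size factor, separately within each time. Of these values at least 99.985% were whole reads within 0.01 once the step of 1 read was removed. They were divided here by median-of-ratios factors over all 12 samples, from 0.904 to 1.12, so that the times share a scale.

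Genes with a mean of at least 10 were kept (19189 of 35833 rows, of which 4356 were 0 throughout). Log2(value + 2) was fitted with limma 3.58.1 (R 4.3.3; trended, robust variance, 4 group means over all 12 samples) with Benjamini-Hochberg adjustment at 0.05. Fold changes are on this log2 scale, which understates changes of low genes. The fit was also run on simulated counts of independent samples, with changes only in treated roots at 6 h. That check does not cover the spread between replicates or the library that stood apart. EdgeR 4.0.16 and DESeq2 1.42.0 on recovered reads, other pseudocounts, filters, scalings, replicate blocks, sample weights and leaving out each sample were alternatives. Counting error in 1 library limits genes with few reads most. Between replicates, chi-square per degree of freedom ran from 5.04 to 27.7, above the value of sampling noise alone.

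By the title numbers, same-numbered deviations at 6 h correlated at 0.305, 0.292 and 0.126 over all genes tested, and other pairings at most at 0.0368. At 24 h same-numbered deviations correlated at -0.188, 0.0484 and 0.0229, and other pairings at up to 0.209. Deviations cancel within a group, so these values are not independent of each other. They do not settle whether the numbers mark pairs. The source names number 3 treated samples otherwise. They give no treated sample the number 3, so mock replicate 3 of each time adds nothing to a treatment effect under that block. The 10 genes and all lists were chosen with earlier results of these data known. All 10 genes are named, and of the 16 further identifiers those past the adjusted p threshold or most alike to one of the 10. The reference table paired 1 of the 35833 identifiers with a name and 0 of the 10. No sequence is shown.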

Additional observations from a re-analysis of the deposited data

How the results depend on the processing

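Single values were followed under the alternatives for 30 results. These were the treatment effects of all 10 genes at 6 h and 24 h, and the difference between the times for MPK3 and FLS2. The others were the changes between times of MPK3, MPK6, RLCK176 and CEBiP, so changes between times of the remaining genes are not in this tally. In it, 630 values kept their direction and side of the threshold, 16 newly passed and 31 changed sign. The single call among the 30 results, MPK3 between times in mock roots, was not lost, while calls among the 16 further identifiers were lost as given above. Genes called at 6 h, 315, became 809 with the title replicate block, 65 with the source-name block, 699 with sample weights, 147 with the 6 h samples alone, 672 by DESeq2 and 4 to 744 leaving out 1 sample. At 24 h, 19 became 0 with the source-name block (1311 at an unadjusted p under 0.05 by limma, and 54 by DESeq2), 39 with weights, 29 with the 24 h samples alone, and 3 to 29 leaving out 1. For the difference, 104 became 378 with the title block, 24 with the source-name block, 237 with weights, 334 by DESeq2, and 36 to 483 leaving out 1. On the values as deposited the time counts, 3312 and 2678, became 7937 and 7186. Of the 10 genes, those called at 6 h went from 0 to 1 with the title block and by DESeq2 (0 to 1 leaving out 1), and for the difference from 0 to 1 with the title block. In mock roots between times 1 became 5 as deposited and 2 with the title block and by DESeq2 (1 to 2 leaving out 1). In treated roots 0 became 3 as deposited and 1 with either block and by DESeq2 (0 to 1 leaving out 1). The block within each time removes differences between numbers from the spread of the time comparisons. Changes of sign were all in values that did not pass. At 6 h CEBiP was -0.0243 with weights and -0.000463 by edgeR, and leaving out 1 gave -0.13 to 0.14 for CEBiP, -0.0361 to 0.20 for SERK2 and -0.0365 to 0.0493 for MPK6. At 24 h weights gave 0.00996 for CEBiP and -0.0506 for CERK1, and RLCK176 was -0.00315 as deposited, -0.11 with the source-name block, -0.00715 by edgeR and -0.00955 by DESeq2. RLCK185 was -0.0127 with the source-name block. Leaving out 1 at 24 h gave -0.0815 to 0.0480 for CEBiP, -0.0328 to 0.17 for CERK1, -0.0674 to 0.28 for LYP4, -0.0922 to 0.17 for RLCK176, -0.0243 to 0.0528 for RLCK185, -0.28 to 0.0214 for MPK3 and -0.30 to 0.10 for MPK6. CEBiP between times was 0.0439 in mock and 0.0227 in treated roots as deposited. The cause of these moves was not tested, except that leaving out samples leaves fewer of them. A minimum mean of 50 gave no value for FLS2, and single-time fits give none for comparisons across times. Correlations without replicate 2 of the 24 h mock group were chosen after seeing the data. Low depth limits FLS2, LYP4 and LYP6.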
